A study of Rattus norvegicus with 16 samples.

Results

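miR-451 and miR-144 are the microRNAs (miRNAs, small RNAs that guide Argonaute proteins to messenger RNAs) best known from red blood cells, and their level in a brain sample is often read as a measure of how much blood it held. They were taken here as every row of the count tables named miR-451, miR-144 or miR-486, with any arm suffix. This gave 4 of the 722 miRNAs listed, miR-451-5p, miR-451-3p, miR-144-3p and miR-144-5p, and all 4 passed the filter on low counts, which left 639 miRNAs for testing. miR-486, which red cells and muscle both make, was not analysed here.

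The 16 small RNA libraries came from amygdala, where fear is learned, and from dorsal raphe, the main source of serotonin fibres to the forebrain. The rats were 60 days old and of lines called High Responder and Low Responder, which are bred for how much they move about in unfamiliar surroundings. The groups were high responder amygdala, low responder amygdala, high responder dorsal raphe and low responder dorsal raphe, with 4 libraries each. No treatment is named in the labels, and the labels do not say whether blood was washed from the brains, whether tissue was pooled, or whether each library stands for its own rat. The p-values therefore measure only the spread between these samples.

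Both miRNAs come from adjacent hairpins on 1 primary transcript, which the red cell factor GATA1 switches on as red cell precursors mature. miR-144 is cut in the usual way by Drosha and Dicer. miR-451 is the known exception: its stem is too short for Dicer, and Argonaute2 itself slices the hairpin, so that the guide runs from the 5′ arm into the loop. miR-451 and miR-144 together protect red cells from oxidative damage in mice, and miR-451 stays in the mature red cell, which has no nucleus.

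The mature sequences are shown because they name what was counted. All are from RefSeq (build GRCr8), read 5′ to 3′, with the seed, bases 2 to 8, in capitals. RefSeq held an entry for each of the 4 members.
miR-451-5p: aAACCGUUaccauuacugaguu
miR-451-3p: aUGGUAAUgguucucuugcugcu
miR-144-3p: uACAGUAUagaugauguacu
miR-144-5p: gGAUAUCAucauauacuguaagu

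The 4 seeds differ from one another, and none of them was found in another of the 693 mature rat miRNAs of that table. Bases 2 to 7 of miR-144-3p are also those of miR-101a-3p and miR-101b-3p, and bases 2 to 7 of miR-451-3p are those of miR-1193-5p. Outside these bases miR-144-3p and the miR-101 miRNAs differ, as the next lines show with the shared bases in capitals.
miR-144-3p bases 2 to 7 are shared by miR-101a-3p: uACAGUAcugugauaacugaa
and by miR-101b-3p: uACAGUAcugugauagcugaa

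The hairpins show how the arms lie on their precursors. Both are on the plus strand of chromosome 10 in GRCr8, Mir144 at chr10:63459397-63459479 and Mir451a at chr10:63459569-63459640, with 89 bases between them. In RefSeq's gene order they stand between the protein-coding genes Flot2 and Eral1. These positions are RefSeq's alone, since no source used here names the build behind the counts. Capitals mark the 2 mature arms, 5p first.
Mir144: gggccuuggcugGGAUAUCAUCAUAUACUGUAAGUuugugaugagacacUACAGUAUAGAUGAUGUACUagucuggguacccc
Mir451a: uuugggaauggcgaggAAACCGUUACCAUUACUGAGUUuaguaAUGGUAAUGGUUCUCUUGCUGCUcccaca

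In the 83-base Mir144 hairpin 14 bases lie between the arms. In the 72-base Mir451a hairpin 5 bases lie between them.

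The libraries held 1741167 to 8134915 counts. Levels are counts per 1000000 (CPM), divided by edgeR's TMM factors (trimmed mean of M values), which correct for libraries in which a few miRNAs take many of the counts. The floor of detection was set at 3 counts a library, or 0.369 to 1.72 CPM before scaling, and covers counting error only. High responder amygdala replicate 1 and low responder dorsal raphe replicate 4 had the lowest totals of the study, 1741167 and 2096188 counts, and the TMM factor of the raphe library was 0.596, against 0.871 to 1.27 in the other 15. Of the miRNAs listed as neuronal for the labelled tissue, 6 of 6 had counts in all libraries, with a summed level of 128117 to 264309 CPM. The largest part was miR-9a-5p, at 136741 CPM on average. Whether each of the 6 marks neurons alone was not tested.

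miR-451 and miR-144 were a minor component of every library. miR-451-5p, the functional miR-451, averaged 81.4 ± 43.9 CPM over the 16 libraries (SD), which placed it at rank 257 of 722 by mean level. miR-144-3p, the miR-144 arm with the better known targets, averaged 67.8 ± 29.0 CPM (rank 277), miR-144-5p 15.6 ± 5.45 CPM (rank 372) and miR-451-3p 1.83 ± 1.00 CPM (rank 603). The 4 together made up 12877 of 72215645 counts, or 0.0178%. In a piece of tissue, fewer red cells and less of these miRNAs per cell cannot be told apart.

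The summed share of the 4 miRNAs ranged over 6.13-fold between libraries, and over 2.96-fold between the 14 that remain without the 2 of lowest depth. The highest share was 0.0316% in high responder amygdala replicate 4 (95% Wilson interval 0.0300% to 0.0332%). The lowest was 0.00515% in low responder dorsal raphe replicate 4 (0.00427% to 0.00622%), followed by 0.00764% in high responder amygdala replicate 1 (0.00645% to 0.00905%). These intervals cover counting error only and do not overlap between the highest library and the 2 lowest. After TMM scaling the range was 4.94-fold, or 3.21-fold without the same 2 libraries, and high responder amygdala replicate 1 was then the lowest.

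By group, the unscaled share averaged 0.0192 ± 0.0112% in high responder amygdala, 0.0153 ± 0.00437% in low responder amygdala, 0.0195 ± 0.00477% in high responder dorsal raphe and 0.0131 ± 0.00534% in low responder dorsal raphe (SD, n = 4 each). High responder amygdala was split, with 0.0256% and 0.0316% in replicates 3 and 4 and 0.00764% and 0.0120% in replicates 1 and 2, which also had the lower totals of the group. Low responder amygdala ran from 0.0107% to 0.0212% and overlapped the lower pair alone. In dorsal raphe, high responders ran from 0.0155% to 0.0264%. Low responders had 0.0153% to 0.0166% in replicates 1 to 3 and 0.00515% in replicate 4. The ranges of every pair of groups overlapped.

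**Figure D1:**
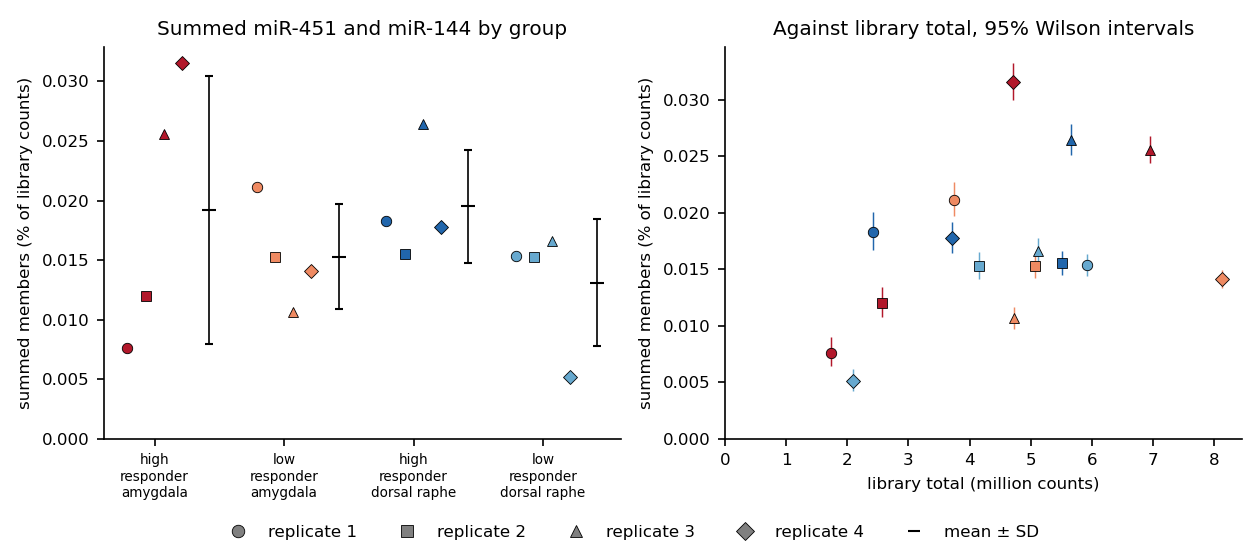
Summed counts of the 4 miR-451 and miR-144 miRNAs as a percentage of all counts of a library, by group with mean and SD (left) and against the total count of the library with 95% Wilson intervals (right); colours are the groups and marker shapes the replicate numbers. The lowest shares, 0.00515% and 0.00764%, belong to the libraries of 2096188 and 1741167 counts, and high responder amygdala spans 0.00764% to 0.0316%.

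The summed level was set against library depth, as deviations from the group means of log2 values (Pearson r = 0.757, permutation p = 0.0134, adjusted 0.0510; Spearman rho = 0.721, permutation p = 0.0179, adjusted 0.0627; n = 16, adjusted over 7 relations). The level is itself divided by that total, and neither adjusted p is under 0.05. Without high responder amygdala replicates 1 and 3, the libraries whose depth deviated most, r was 0.609, and without the 2 shallowest libraries it was 0.562 (n = 14). For single miRNAs r with depth was 0.77 for miR-144-3p, 0.73 for miR-144-5p, 0.66 for miR-451-5p and -0.13 for miR-451-3p, where the median over the 639 miRNAs was -0.11. Of the 639 miRNAs, 72.8% had a lower r than miR-451-5p and the rest a higher one. The part of depth in the results below was not tested.

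In amygdala the high responder libraries were divided, with much miR-451-5p and miR-144 in replicates 3 and 4 and little in replicates 1 and 2, and none of the 4 miRNAs passed between the lines. The division was also one of depth, with 1741167 and 2561377 counts in replicates 1 and 2 and 6949748 and 4713850 in replicates 3 and 4. The TMM factors were 1.08 and 1.06, against 0.871 and 0.902. The part of depth and scaling in this division was not tested. miR-451-5p stood at 23.4, 48.0, 176 and 168 CPM in high responder replicates 1 to 4, against 109, 69.8, 59.0 and 58.1 CPM in low responder replicates 1 to 4. High responders thus held the 2 highest and the 2 lowest of these 8 libraries. miR-144-3p stood at 33.0, 51.0, 84.3 and 154 CPM in high responders, against 56.2, 55.7, 36.4 and 76.9 CPM in low responders. miR-144-5p stood at 11.7, 11.8, 30.1 and 25.2 CPM in high responders, against 13.3, 15.2, 12.4 and 15.5 CPM in low responders. Both miR-144 arms were highest in the same pair of high responder libraries as miR-451-5p, and the groups overlapped. Groups without overlap were seen for 8.76% of all miRNAs in this comparison, and for 0 of the 4.

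miR-451-3p, the other arm of the miR-451 hairpin, lay near the floor. It had 5, 8, 21 and 9 counts in high responder amygdala replicates 1 to 4, or 2.66, 2.96, 3.47 and 2.12 CPM, against 12, 9, 6 and 9 counts, or 1.19 to 2.75 CPM, in low responders. Only low responder replicate 1 stood within the high responder range.

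In the test between the lines in amygdala the log2 fold changes, high over low responders, were 0.50 for miR-451-5p (SE 0.49, 95% interval -0.54 to 1.53), 0.52 for miR-144-3p (SE 0.39, -0.31 to 1.35), 0.50 for miR-144-5p (SE 0.32, -0.17 to 1.17) and 0.72 for miR-451-3p (SE 0.49, -0.31 to 1.75). The adjusted p were 0.754, 0.709, 0.664 and 0.700 in edgeR's quasi-likelihood test. Members called were 0 of 4, where 0% of the 639 miRNAs passed, and 0 of 4 lay at an unadjusted p under 0.05, where 10.2% (65) of all did. DESeq2 called 20 miRNAs in this comparison and none of these, though it gave no adjusted p for miR-451-3p, and limma-voom called 0. The 4 values had a median of 0.51, against 0.07 over all miRNAs tested. They do not show that the lines were alike, since the intervals include more than a doubling.

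The amygdala difference rested on few libraries. The log2 fold change of miR-451-5p was 0.79, 0.70, 0.10 and 0.14 without high responder replicates 1, 2, 3 and 4 in turn, and 0.09 in limma-voom. That of miR-144-3p ran from -0.00 (without replicate 4) to 0.76 (without replicate 1) and that of miR-144-5p from 0.18 (without replicate 3) to 0.66 (without replicate 2). With same-numbered libraries of the lines taken as pairs, in a fit with the replicate as a block, the values were 0.16 for miR-451-5p (SE 0.65), 0.33 for miR-144-3p (SE 0.36), 0.37 for miR-144-5p (SE 0.33) and 0.76 for miR-451-3p (SE 0.39), with adjusted p from 0.320 to 0.920 in edgeR. The summed level differed by 0.24 on the log2 scale (high responders minus low responders), by 0.66 without high responder replicate 1, by -0.03 without replicate 3 and by -0.11 without replicate 4.

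In dorsal raphe the levels averaged higher in high responders for all 4 miRNAs, within the spread between libraries. miR-451-5p stood at 62.0, 66.9, 130 and 86.7 CPM in high responder replicates 1 to 4, against 54.6, 56.1, 91.4 and 42.5 CPM in low responders. miR-144-3p stood at 63.6, 73.0, 97.9 and 61.8 CPM in high responders, against 71.3, 70.5, 62.8 and 36.0 CPM in low responders. In both lines replicate 3 had the most miR-451-5p, and in low responders replicate 4 had the least of both.

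The minor arms were distributed as follows. miR-144-5p stood at 17.6, 13.7, 16.5 and 16.7 CPM in high responder dorsal raphe, against 7.21 to 16.1 CPM in low responders, lowest in replicate 4. miR-451-3p had 4, 5, 9 and 15 counts (1.31, 0.904, 1.48 and 3.85 CPM) in high responders, against 6, 4, 5 and 1 counts (0.937, 0.904, 0.978 and 0.801 CPM) in low responders. For either arm 3 of 4 high responder libraries lay above all low responder libraries. For miR-451-3p this order rests on 1 to 15 counts a library, so that a library with 4 counts ranked above one with 6. Low responder replicate 4, with 1 count, lay under the floor. Groups without overlap were seen for 4.23% of all miRNAs, and for 0 of the 4.

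All 4 log2 fold changes between the lines in dorsal raphe were above 0 and none passed. They were 0.49 for miR-451-5p (SE 0.49, 95% interval -0.54 to 1.53), 0.29 for miR-144-3p (SE 0.39, -0.54 to 1.12), 0.34 for miR-144-5p (SE 0.32, -0.33 to 1.02) and 0.99 for miR-451-3p (SE 0.54, -0.15 to 2.12). The adjusted p were 0.922, 0.962, 0.894 and 0.594 in edgeR. Members called were 0 of 4, where 0% of all miRNAs passed, and 0 of 4 had an unadjusted p under 0.05, where 11.0% (70) of all did. DESeq2 and limma-voom called 0 miRNAs. The median of the 4 was 0.42, against -0.06 over all 639, and with library totals as the scaling the 2 medians were 0.59 and 0.14. The summed level differed by 0.42 on the log2 scale (high responders minus low responders), by 0.22 without low responder replicate 4 and by 0.25 without high responder replicate 3. The fold change of miR-451-3p was 0.48 on the log2 scale without high responder replicate 4, its highest library.

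The difference between the lines was then averaged over the regions, a comparison chosen after the values above were seen. The log2 fold changes were 0.50, 0.41, 0.42 and 0.85 for miR-451-5p, miR-144-3p, miR-144-5p and miR-451-3p (SE 0.35, 0.28, 0.23 and 0.36). All had an adjusted p of 0.792 in edgeR. Called were 0 of 4, where 0% of all passed. miR-451-3p alone had an unadjusted p under 0.05 (0.0310), as did 4.69% (30) of the 639. DESeq2 called 1 miRNA, none of these 4, and limma-voom 0. No member passed the test of whether the line difference differed between the regions. This interaction was 0.00, 0.23, 0.16 and -0.27 on the log2 scale for the 4 miRNAs in the same order (SE 0.71, 0.56, 0.45 and 0.71), with adjusted p of 0.931 to 0.998 in edgeR. Again 0 of 4 were called, where 0% of all miRNAs were and 12.7% (81) had an unadjusted p under 0.05; DESeq2 called 12, none of them members, with no adjusted p for miR-451-3p, and limma-voom 0.

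**Figure D2:**
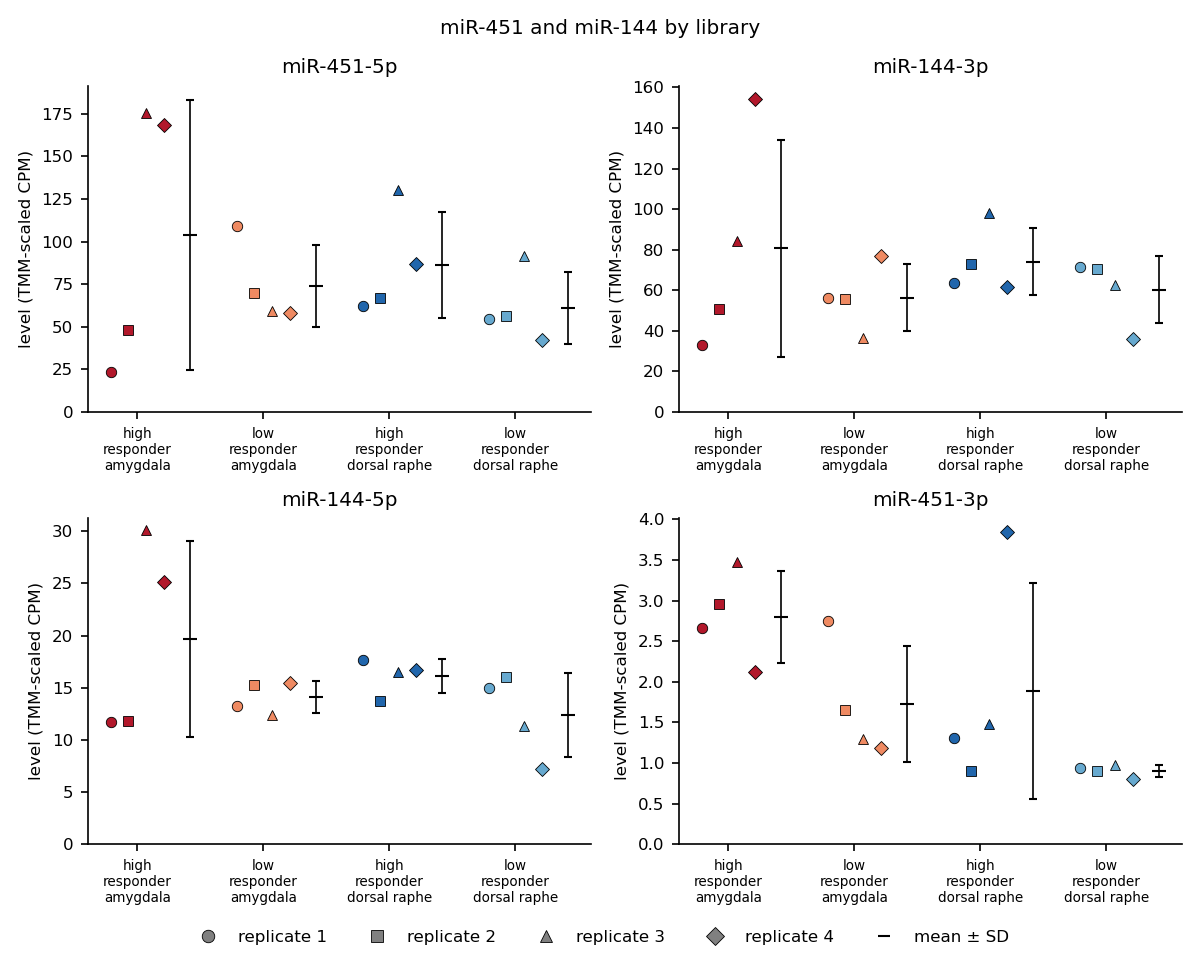
TMM-scaled CPM of each miRNA in the 16 libraries, by group, with the mean and SD of each group beside its points; marker shapes are the replicate numbers and the vertical axes start at 0. High responder amygdala spans 23.4 to 176 CPM of miR-451-5p, wider than any other group, and the groups overlap for miR-451-5p and both miR-144 arms.

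Amygdala and dorsal raphe differed in many miRNAs, and none of these 4 passed. Averaged over the lines, 0 of the 4 were called, where 24.3% of the 639 miRNAs (155) were, and 0 of the 4 had an unadjusted p under 0.05, where 39.0% of all had. DESeq2 called 203 miRNAs, again none of the 4, and limma-voom called none of the 4 either. miR-451-5p averaged 89.0 ± 56.6 CPM in amygdala and 73.8 ± 28.1 CPM in dorsal raphe (SD, n = 8 each). Its log2 fold change was 0.27 (SE 0.35, 95% interval -0.46 to 1.00, adjusted p = 0.568 in edgeR). miR-144-3p averaged 68.5 ± 38.9 CPM in amygdala and 67.1 ± 17.0 CPM in dorsal raphe (0.01, SE 0.28, 95% interval -0.57 to 0.60, adjusted p = 0.974 in edgeR). miR-144-5p averaged 16.9 ± 6.90 and 14.3 ± 3.47 CPM in amygdala and dorsal raphe (0.23, SE 0.23, adjusted p = 0.454 in edgeR).

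miR-451-3p came closest to a difference between regions. It averaged 2.26 ± 0.829 CPM in amygdala and 1.40 ± 1.02 CPM in dorsal raphe (0.73 on the log2 scale, SE 0.36, adjusted p = 0.144 in edgeR). Without high responder dorsal raphe replicate 4, the raphe library with 15 counts, the value was 1.12 (SE 0.34) and passed (adjusted p = 0.0275 in edgeR). In that fit 121 of the 663 miRNAs tested passed. The libraries that took miR-451-3p past the low-count filter there were all of amygdala, where it was higher. This call is therefore no independent support for a region difference. In low responders its amygdala libraries (1.19 to 2.75 CPM) all lay above its dorsal raphe libraries (0.801 to 0.978 CPM), which was also so, in either direction, for 19.2% of all miRNAs. That raphe range rests on 1 to 6 counts a library, and the test in low responders gave 0.86 (SE 0.54, adjusted p = 0.301 in edgeR).

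Of the 4, 0 were called in low responders, where 14.1% of all miRNAs (90) passed, and 0 in high responders, where 13.1% (84) did. At an unadjusted p under 0.05 the counts were also 0 of 4, where 27.7% of all miRNAs in low responders and 29.1% in high responders reached it. In low responders the log2 fold changes, amygdala over dorsal raphe, were 0.27 for miR-451-5p, -0.10 for miR-144-3p and 0.15 for miR-144-5p (SE 0.49, 0.39 and 0.32). In high responders they were 0.27, 0.13 and 0.31 (SE 0.49, 0.39 and 0.32), with 0.59 (SE 0.49) for miR-451-3p. High responder amygdala libraries lay both above and below all high responder raphe libraries, with 2 in each position for miR-451-5p and for miR-144-5p. No member's groups were free of overlap there, where those of 23.5% of all miRNAs were.

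**Figure D3:**
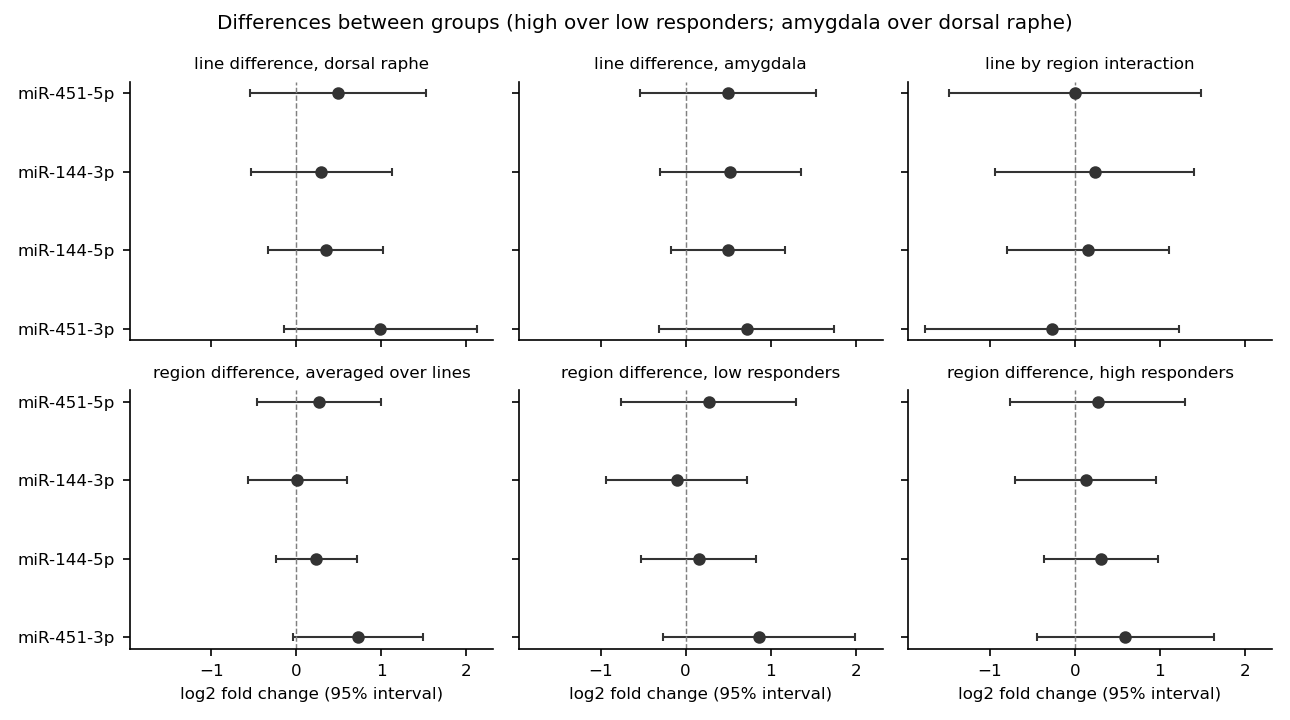
Log2 fold changes of the 4 miRNAs with 95% intervals in edgeR's quasi-likelihood model, in 6 panels for line (high over low responders), region (amygdala over dorsal raphe) and their interaction (the line difference in amygdala minus that in dorsal raphe); the dashed line is no difference. All 24 intervals drawn include 0, and the region difference of miR-451-3p averaged over lines comes nearest to leaving it out (-0.04 to 1.49). The line difference averaged over the regions is not drawn.

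Other miRNAs of blood and vessels were measured in the same libraries. A list of 8 miRNAs that red cells also hold, but that brain cells make too (miR-16-5p, miR-92a-3p, miR-25-3p, miR-363-3p, miR-106b-5p, miR-185-5p, miR-20a-5p and miR-19b-3p), had a summed level of 3594 ± 1431 CPM in high responder amygdala, 4908 ± 1231 CPM in low responder amygdala, 5755 ± 647 CPM in high responder dorsal raphe and 6362 ± 810.2 CPM in low responder dorsal raphe (SD, n = 4 each). Of the 8, 0 passed between the lines in either region, where 0% of all miRNAs passed. Their median log2 fold change was -0.49 in amygdala, against 0.07 over all miRNAs. Between the regions, averaged over the lines, 1 of the 8 was lower in amygdala, miR-185-5p (-0.55, SE 0.18, adjusted p = 0.0370 in edgeR), where 24.3% of all miRNAs passed. The median of the 8 was -0.37, against -0.08 over all miRNAs.

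White cell and platelet miRNAs (5 of the 6 listed had a row) summed to 423 to 1052 CPM in high responder amygdala and 1056 to 1617 CPM in low responder amygdala, and to 1110 to 1466 CPM in high responder and 1514 to 1653 CPM in low responder dorsal raphe. Neither pair of ranges overlapped, though in amygdala they nearly met. Among single miRNAs 8.76% in amygdala and 4.23% in dorsal raphe had no overlap between the lines. None of the 5 passed between the lines in a region (median log2 fold change -0.50 in amygdala and -0.01 in dorsal raphe), where 0% of all miRNAs did. None of the counts of these 5 was 0. miR-150-5p, a lymphocyte miRNA, was lower in amygdala averaged over the lines (-0.71, SE 0.22, adjusted p = 0.0230 in edgeR) and in high responders (-0.98, SE 0.31, adjusted p = 0.0450 in edgeR). miR-223-3p, the defining neutrophil miRNA, averaged 5.50 CPM over the 16 libraries. miR-126a-3p of the vessel lining and the other 5 vascular miRNAs summed to 38490 to 49935 CPM in high responder amygdala, 33245 to 41986 CPM in low responder amygdala, 43992 to 61016 CPM in high responder dorsal raphe and 47068 to 119378 CPM in low responder dorsal raphe. In that last group miR-143-3p averaged 42587 ± 41861 CPM (SD). Its highest library, at 105324 CPM, was replicate 4, the library with the TMM factor of 0.596. Of the vascular miRNAs 0 of 6 passed in any comparison. Between the regions 24.3% of all miRNAs passed averaged over the lines, 14.1% in low responders and 13.1% in high responders.

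Markers of other tissues were counted as well. The 3 choroid plexus miRNAs, from the epithelium of a tissue rich in blood vessels, summed to 8265 to 17105 CPM in high responder amygdala, 999 to 9226 CPM in low responder amygdala, 1533 to 2909 CPM in high responder dorsal raphe and 2064 to 3825 CPM in low responder dorsal raphe. Between the lines 0 of 3 passed in amygdala, where 0% of all miRNAs did. Between the regions 0 of 3 passed in low responders and 3 of 3 were higher in amygdala in high responders, among them miR-204-5p (2.76, SE 0.51, adjusted p = 0.00133 in edgeR). Of all miRNAs 14.1% passed in low responders and 13.1% in high responders. Averaged over the lines, where 24.3% of all miRNAs passed, 4 of the 4 muscle miRNAs were lower in amygdala, led by miR-133a-3p (-2.93, SE 0.25, adjusted p = 1.8e-07 in edgeR). The muscle miRNAs summed to 232 to 366 CPM in high responder amygdala, 216 to 402 CPM in low responder amygdala, 1344 to 1632 CPM in high responder dorsal raphe and 1377 to 5085 CPM in low responder dorsal raphe. In that last group miR-1-3p averaged 2201 ± 1673 CPM (SD). Its highest library, at 4697 CPM, was again replicate 4. Of the 6 listed as neuronal, 2 were higher in amygdala averaged over the lines, miR-128-3p (2.23, SE 0.22) and miR-132-3p (1.73, SE 0.17). Both had an adjusted p of 1.1e-06 in edgeR. miR-122-5p, the defining liver miRNA, averaged 7.71 CPM and was higher in amygdala averaged over the lines (1.34, SE 0.41, adjusted p = 0.0232 in edgeR). The part of these tissues in the levels of miR-451 and miR-144 was not tested.

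The arms of the shared transcript were compared between libraries. Over deviations from the group means, miR-451-5p and miR-144-3p had r = 0.771 (permutation p = 0.0235, adjusted 0.0548) and rho = 0.709 (permutation p = 0.0294, adjusted 0.0687; n = 16), and r = 0.702 without high responder amygdala replicates 1 and 3. The 2 arms of miR-144 had r = 0.783 (permutation p = 0.0146, adjusted 0.0510) and rho = 0.788 (permutation p = 0.00869, adjusted 0.0608; n = 16), and r = 0.730 without high responder amygdala replicates 1 and 4. miR-451-5p and miR-144-5p had r = 0.703 (permutation p = 0.111, adjusted 0.195) and rho = 0.621 (permutation p = 0.104, adjusted 0.182; n = 16), and r = 0.50 without high responder amygdala replicates 1 and 3. None passed after adjustment over the 7 relations, and the points share their library and its depth. Without the 2 shallowest libraries r was 0.587, 0.614 and 0.574 for these 3 pairs, and rho 0.393, 0.525 and 0.275 (n = 14). miR-451-3p, at 1 to 21 counts, had r = 0.22 with miR-451-5p, -0.14 with miR-144-3p and 0.10 with miR-144-5p (rho 0.30, -0.14 and 0.02; permutation p from 0.309 to 0.942, adjusted p from 0.433 to 0.942; r 0.18, -0.11 and 0.17 without the 2 farthest libraries).

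miR-144-3p was not the closest match of miR-451-5p. It stood at rank 46 of the 638 other miRNAs tested by this correlation, miR-144-5p at rank 98 and miR-451-3p at rank 282. Among the 404 other miRNAs with a mean of at least 10 CPM, the 8 most like miR-451-5p were miR-136-3p (r = 0.896) and miR-434-3p (0.855), both of the imprinted Dlk1-Dio3 cluster that neurons express, miR-532-3p (0.885), miR-652-3p (0.857), miR-664-3p (0.850), miR-342-3p (0.845), miR-592 (0.841) and miR-98-5p (0.838), a let-7 relative. These are the highest of 404 values over 16 libraries and are given as a description. The marker lists were mixed, and the median r over the 638 was 0.04. The other red cell miRNAs ran from -0.24 (miR-363-3p) to 0.73 (miR-16-5p), with a median of 0.62, and the white cell and platelet miRNAs from 0.25 (miR-223-3p) to 0.74 (miR-142-5p), with a median of 0.63. The vascular miRNAs ran from -0.30 (miR-143-3p) to 0.82 (miR-145-5p), both of smooth muscle, with a median of 0.64. The miRNAs listed as neuronal ran from -0.23 (miR-128-3p) to 0.74 (miR-124-3p), with a median of 0.63. The muscle miRNAs ran from -0.14 (miR-1-3p) to 0.70 (miR-133b-3p), the 3 choroid plexus miRNAs from 0.22 to 0.25, and the liver miR-122-5p had -0.65.

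**Figure D4:**
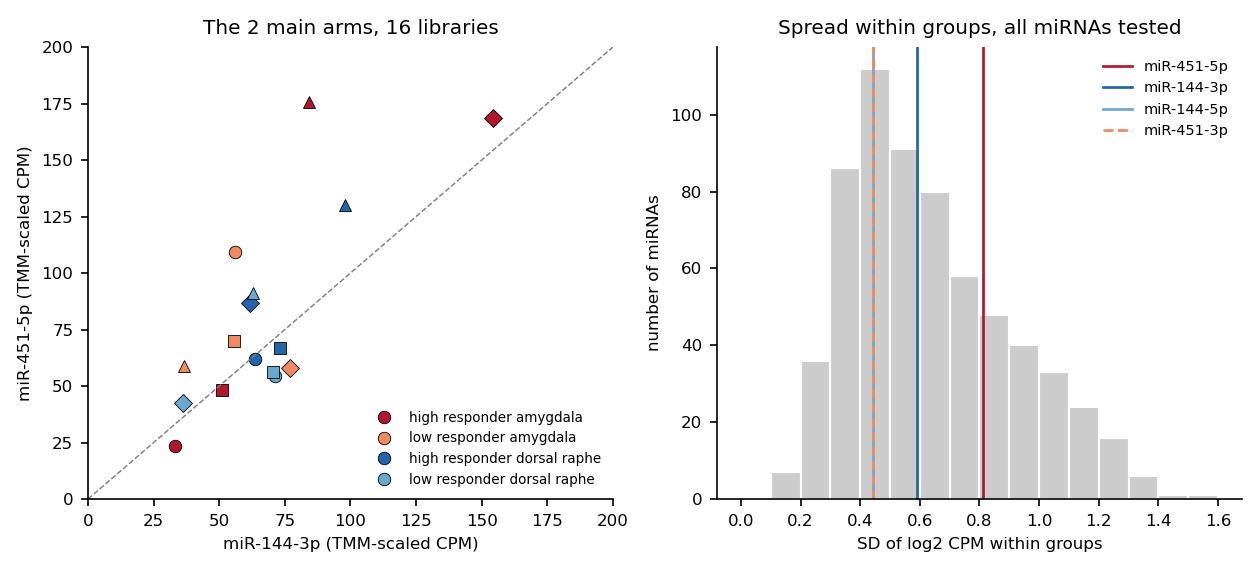
Left, miR-451-5p against miR-144-3p in TMM-scaled CPM for 16 libraries (colour, group; shape, replicate number as in the plot by library; dashed line, equal levels). Right, SD of log2 CPM within groups for 639 miRNAs, with 4 lines for the members; miR-451-5p stands at 0.81 and the median of all at 0.59.

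The balance of the 2 miRNAs was read from ratios within a library, which no scaling changes. miR-451-5p had 0.710 to 2.08 times the counts of miR-144-3p, with a median of 1.13 and more miR-451-5p than miR-144-3p in 9 of 16 libraries. The ratio was 0.710, 0.942, 2.08 and 1.09 in high responder amygdala replicates 1 to 4, against 1.95, 1.25, 1.62 and 0.756 in low responder amygdala. It was 0.974, 0.916, 1.33 and 1.40 in high responder dorsal raphe, against 0.766, 0.795, 1.45 and 1.18 in low responder dorsal raphe. Every group had libraries on either side of 1.

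Ratios between the arms of a hairpin rest on 1 to 21 counts of the rarer arm for miR-451. miR-144-3p outnumbered miR-144-5p in all 16 libraries, by 2.80 to 6.13 times (mean 4.38 ± 1.07). miR-451-5p outnumbered miR-451-3p in all 16, by 8.80 to 93.4 times (mean 51.9 ± 24.1), the lowest being high responder amygdala replicate 1 with 44 and 5 counts. Of 12 comparisons of these ratios between groups, added after the values were seen, the lowest exact permutation p was 0.0286 (two-sided, n = 4 each, the smallest possible), for miR-451-5p over miR-451-3p in low responders, amygdala against dorsal raphe. There the log2 ratio was lower in amygdala by a difference of -0.57, with an adjusted p of 0.343 over the 12. For the other 11 the exact permutation p was 0.114 or higher. These tests took no pairs of libraries into account.

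The spread of these miRNAs between libraries of a group was set beside that of all others. The SD of log2 CPM within groups was 0.81 for miR-451-5p, higher than for 74.6% of the 639 miRNAs, 0.59 for miR-144-3p (50.4%), 0.44 for miR-144-5p (28.2%) and 0.44 for miR-451-3p (28.0%), against a median of 0.59 over all. Counting error alone would give an SD of about 0.10 for miR-451-5p and 0.11 for miR-144-3p, and 0.65 for miR-451-3p, whose log2 values the prior count draws together. Among the 94 miRNAs within a factor of 2 of its level, miR-451-5p was above 88.3%. Its SD was 1.42 in high responder amygdala, where the median of all miRNAs was 0.67, against 0.42, 0.48 and 0.46 in low responder amygdala, high responder dorsal raphe and low responder dorsal raphe, where the medians were 0.40, 0.33 and 0.57. Without the 2 shallowest libraries the SD of miR-451-5p within groups was 0.62.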

How the data were processed

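The deposited files hold read counts per mature miRNA, 1 table per library, made by the authors with cutadapt 1.3.1, Bowtie2 and bedtools 2.14.2, per the submitters' processing notes. Not given in the sources used here: settings, genome build, annotation, and how reads fitting several miRNAs were counted. A miRNeasy kit was used and libraries were size-selected, per the labels' protocols.

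filterByExpr (minimum count 10, minimum total 15) kept 639 of 722 miRNAs. edgeR 4.0.16 (R 4.3.3) was fitted once to the 16 libraries with a mean per group, and contrasts were tested with its robust quasi-likelihood test. Benjamini-Hochberg adjustment ran over every miRNA kept, and calls were made under 0.05. Log2 CPM uses a prior count of 2. SEs are the fold change over the square root of F. DESeq2 1.42.0 and limma 3.58.1 (voom) were alternatives. Correlations were tested with 100000 permutations within groups; this and their repeats without the 2 shallowest libraries were added after the data were seen.

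Same-numbered libraries of high and low responder amygdala had correlated deviations over miRNAs (0.69, 0.29, 0.21 and 0.51), all above 0.1, so these were taken as paired in a fit with the replicate block, beside the main fit without it, a reading from the data since the meaning of a number is not labelled. Every other pair of groups had a correlation at or under 0.1. Libraries were checked for duplicates, and over 120 pairs their counts differed by a chi-square of at least 50.5 per degree of freedom.

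Named are all members, the 8 miRNAs most like miR-451-5p, and some markers of each list. These markers are some of those past the threshold, or the most abundant, with further ones chosen after their values were seen. The members and lists were chosen with earlier results of these data known.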

Additional observations from a re-analysis of the deposited data

Results flagged for a closer look

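Over 32 checks of a group of 4 libraries for a value far from the rest (each miRNA, the summed share and 3 ratios in each group), 1 value stood apart, where chance gives about 1 in 20. The summed share of miR-451 and miR-144 was 0.005152% in replicate 4 of low responder dorsal raphe. The other 3 libraries of its group had 0.0153% to 0.0166%. Replicate 4 had 2096188 counts and a TMM factor of 0.596, and after scaling its share was 0.00865%, which did not stand apart. The same library had the highest miR-143-3p (105324 CPM) and miR-1-3p (4697 CPM) of the 16. The part of depth, scaling and other tissue was not tested.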

How the results depend on the processing

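The number of members called was 0 of 4 in each of the 7 comparisons and stayed 0 under every alternative run but 1. Without high responder dorsal raphe replicate 4 it was 1 for the region difference averaged over the lines (miR-451-3p, adjusted p = 0.0275 in edgeR), so that leaving out 1 library gave 0 to 1. In that run 121 of all 663 miRNAs tested were called, and miR-451-3p passed the low-count filter through amygdala libraries alone. The alternatives were other scalings, DESeq2, limma-voom, no low-count filter, each library left out in turn, both shallowest libraries left out, only the groups compared, and the replicate block. With the replicate block 0 members were called in all comparisons, and the line difference of miR-451-5p in amygdala was 0.16, against 0.50 without it. Without the shallowest libraries the lowest adjusted p of a member in edgeR was 0.0903. Counting each miRNA under each alternative, log2 fold changes kept their sign in 94 of 94 values for line in dorsal raphe, 95 of 96 for line in amygdala and 85 of 92 for region averaged over the lines, but in 64 of 92 for the interaction. Library totals as the scaling moved the median log2 fold change of all miRNAs for the interaction to -0.24, against 0.09. The summed level changed sign for line in amygdala (-0.11 to 0.66) and for region in high responders (-0.39 to 0.38) and low responders (-0.06 to 0.32). No run included miR-486. miR-451-3p was not tested where only the dorsal raphe libraries of both lines or only the low responder libraries entered. Its 1 to 21 counts limit any statement on it.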
